A study of Mus musculus with 6 samples.

Results

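The genes described here are 45 interferon-stimulated, interferon-regulatory and nucleic acid sensing genes of the mouse, taken by symbol from a list. All 45 were found among the 35275 genes of the deposited table. The cells were ID8-KMF, a mouse ovarian cancer line of C57Bl6/J origin derived from ID8 cells that had been passaged in animals, and Rgnef had been knocked out in all of them. Of 6 poly-A RNA libraries, 3 came from Rgnef-/- cells (called knockout here) and 3 from Rgnef-/- cells that carried a lentivirus expressing GFP-tagged Rgnef (called GFP-Rgnef). Rgnef, the gene Arhgef28, encodes a guanine nucleotide exchange factor. Both kinds of cell were subconfluent on dishes seeded with 0.2% Matrigel. The unedited parental line, a vector control and any interferon treatment were not analysed here, so lentivirus, GFP tag and Rgnef cannot be told apart, and each difference below is knockout minus GFP-Rgnef. The labels do not say whether a line was 1 clone or whether the 3 libraries of a group were separate cultures, so each p-value reflects only how far these 6 libraries spread, and that spread may be technical.

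Cells detect foreign or misplaced RNA in the cytosol with the helicases RIG-I (Ddx58) and MDA5 (Ifih1), which signal through the mitochondrial adaptor MAVS to kinases that activate IRF3 and NF-kB. Secreted type I interferon then acts through its receptor on a complex that contains STAT2 and IRF9 and binds interferon-stimulated response elements to induce the IFIT, OAS, MX and many other antiviral genes. Some of these genes, Ifit2 among them, are also known as direct targets of IRF3.

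Levels are in FPKM, fragments scaled for transcript length and library depth. Read numbers were recovered from these values, and for most genes the number given is the smallest whole one that the 6 values allow. Depth was 15898965 to 17977069 reads per library, as the low FPKM values showed. The targeted gene matched the labels: Arhgef28 stood at 50.02 to 57.24 FPKM in the GFP-Rgnef libraries and 0.1101 to 0.1336 FPKM in the knockout libraries. Of 20 leukocyte markers 17 had a mean below 0.5 FPKM, and Ptprc, which encodes CD45, had a value above 0 in 1 library only (0.0179 FPKM in GFP-Rgnef 1). The remaining markers, Cd68, Cd14 and Fcer1g, had means of 2.725, 2.687 and 1.066 FPKM over the 6 libraries and did not pass the test. Markers of the epithelial and mesothelial lineage were present, with Wt1 at 191 ± 10.1 FPKM in GFP-Rgnef and 201 ± 16.2 in knockout libraries (SD, n = 3), while Krt7, Lrrn4, Pax8 and Epcam had means below 0.5. Of the 7 such markers tested Krt18, a keratin, fell from 320 ± 29.8 to 224 ± 9.21 FPKM (log2 difference -0.51, limma adjusted p = 0.00625). The uroplakin gene Upk3b had 92.3 ± 43.1 and 251 ± 117 FPKM, and Cdh1, which encodes E-cadherin, 7.33 ± 0.266 and 5.15 ± 1.68 FPKM with no overlap, and neither passed the test. The part of such differences in the results below was not tested. The endothelial receptor gene Tek stood at 104 ± 7.15 and 124 ± 33.6 FPKM, while the other 5 endothelial markers had means below 0.5.

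Start-site sequences are shown because a core of the interferon-stimulated response element was common among the listed genes and present at 3 of the 5 that passed the test described below. The core searched for was GAAA, any 2 bases and GAAA again, on both strands, in windows from 250 bases before to 50 bases after each RefSeq start site (GRCm38.p6). It was found for 17 of the 36 listed genes with a window (47.2%), against 3.99% of the 27025 genes with a window in the RefSeq promoter reference. Of listed genes with a window, 9 of 23 with a mean of at least 0.5 FPKM (39.1%) and 8 of 13 below it (61.5%) held the core. The core was thus not particular to the genes that passed the test. The 250 bases before the start site follow for Ifit2, its neighbour Ifit3, and the called genes Ifih1, Oasl1 and Bst2, 5′ to 3′ along the gene, with matches to the core in capitals.
Ifit2 (chr19:34550444-34550693, plus strand): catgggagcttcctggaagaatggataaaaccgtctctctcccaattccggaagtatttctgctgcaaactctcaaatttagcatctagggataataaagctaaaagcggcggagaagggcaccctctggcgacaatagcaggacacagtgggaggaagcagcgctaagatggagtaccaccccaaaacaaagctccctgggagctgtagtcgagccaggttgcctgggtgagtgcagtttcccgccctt
Ifit3 (chr19:34583279-34583528, plus strand): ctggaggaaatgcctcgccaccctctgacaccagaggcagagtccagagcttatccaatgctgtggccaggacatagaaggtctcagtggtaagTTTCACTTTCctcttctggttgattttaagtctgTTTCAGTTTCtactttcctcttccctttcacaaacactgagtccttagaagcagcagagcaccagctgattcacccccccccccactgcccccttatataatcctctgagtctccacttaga
Ifih1 (chr2:62646256-62646505, minus strand): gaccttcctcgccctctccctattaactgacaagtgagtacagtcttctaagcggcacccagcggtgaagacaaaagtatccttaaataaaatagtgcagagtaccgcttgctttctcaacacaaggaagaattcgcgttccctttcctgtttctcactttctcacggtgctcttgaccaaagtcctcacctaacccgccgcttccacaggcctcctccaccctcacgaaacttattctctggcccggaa
Oasl1 (chr5:114922990-114923239, plus strand): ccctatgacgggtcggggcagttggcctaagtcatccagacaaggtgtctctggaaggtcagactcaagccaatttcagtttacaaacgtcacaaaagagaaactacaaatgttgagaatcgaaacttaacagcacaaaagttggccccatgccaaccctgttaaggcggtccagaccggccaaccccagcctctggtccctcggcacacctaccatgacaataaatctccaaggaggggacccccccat
Bst2 (chr8:71537473-71537722, minus strand): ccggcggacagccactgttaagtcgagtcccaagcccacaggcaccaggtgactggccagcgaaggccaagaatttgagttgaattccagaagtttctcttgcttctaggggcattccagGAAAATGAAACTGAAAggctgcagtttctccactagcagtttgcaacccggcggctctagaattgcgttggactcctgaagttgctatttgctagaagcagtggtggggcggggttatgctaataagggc
The Ifit3 window held 2 copies on the minus strand, starting 156 and 122 bases before the start site, and the Bst2 window 2 overlapping copies on the plus strand, 130 and 124 bases before it. The Oasl1 window held no match, and neither did the windows of the 2 annotated Ifit2 start sites. For Ifih1 the single match began 32 bases after the start site, outside the stretch shown. Irf2, the other called gene, had 1 match 241 bases before its start. A match describes the letters only, and no match says only that these letters are not in this window. Dhx58, Oas2, Mx1, Mx2, Usp18, Parp9, Parp14, Rtp4 and Ifi27 had no window in the promoter reference and were not searched.

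The listed genes covered a wide range of levels. In FPKM, 14 of the 45 genes had a mean of at least 10 over the 6 libraries, 12 lay between 0.5 and 10, and 19 were below 0.5. The highest was Ifitm2, an interferon-induced transmembrane protein that blocks virus entry, at 96.3 ± 14.7 FPKM in GFP-Rgnef and 98.7 ± 11.4 FPKM in knockout libraries (SD, n = 3). Transcripts of the sensors Ddx58 and Eif2ak2, the adaptor Mavs and the ubiquitin ligase Trim25 had means of 20.3 to 23.3 FPKM, and those of Irf1 and Irf3 40.01 and 24.3. The low tier held the genes most strongly tied to interferon exposure: Mx1, Mx2, Rsad2, Oas1a, Oas2, Oas3, Ifit1, Ifit3, Ifi44, Usp18 and Isg15 had means from 0.00350 to 0.177 FPKM. In the plot of levels by library Ddx58, Mavs, Irf1, Oasl1 and Ifitm2 are bright rows in all 6 columns, and Oas1a, Oas2, Oas3, Mx1, Mx2 and Isg15 are dark in all of them.

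**Figure D1:**
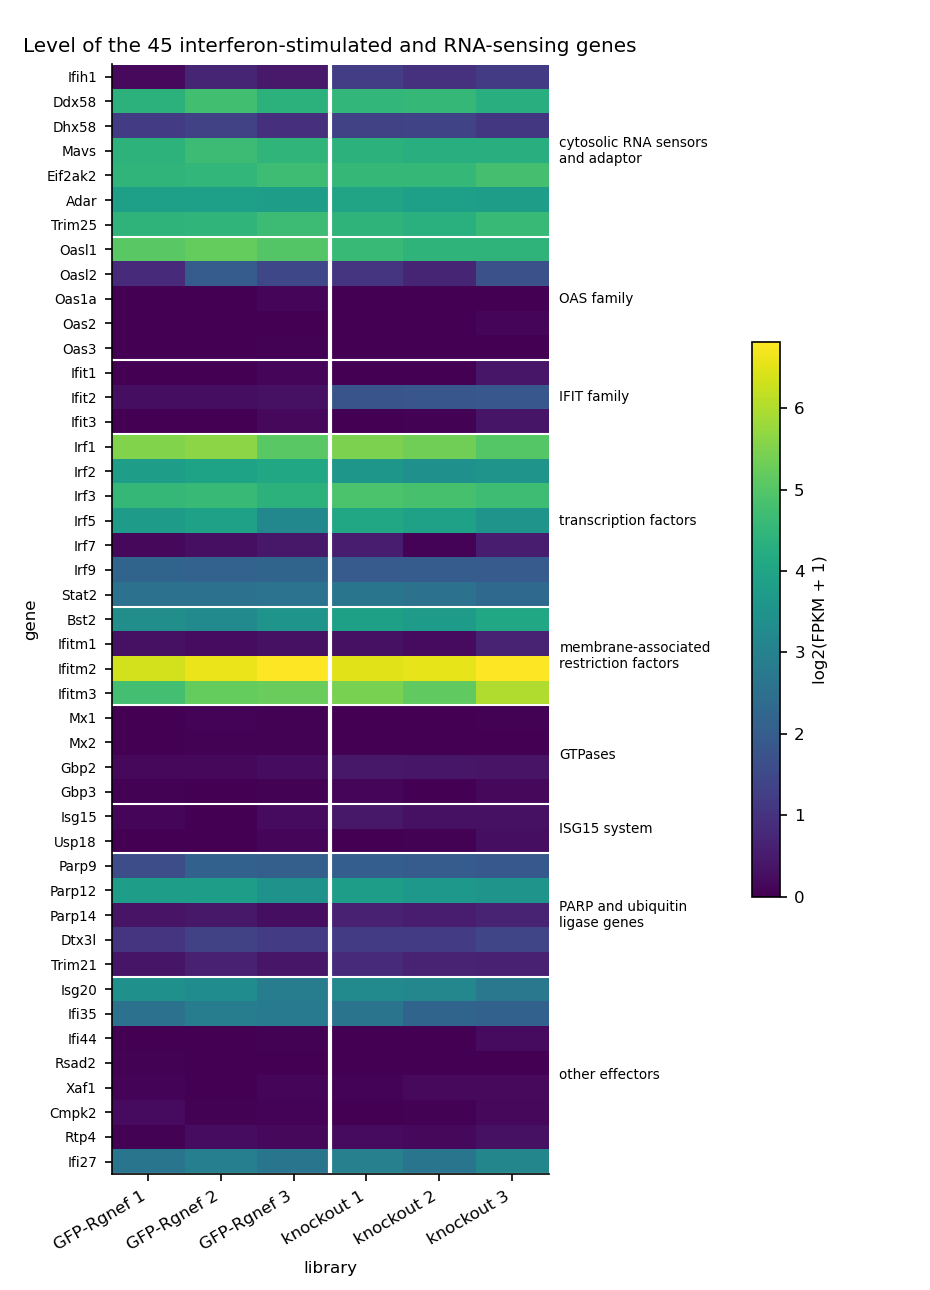
Level of each of the 45 genes (rows, by role) in each of the 6 libraries (columns), as log2(FPKM + 1) on the colour scale. Ifit2 is the row that changes most between the left 3 columns (GFP-Rgnef) and the right 3 (knockout).

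Of the 45 genes 26 passed the filter, a mean of at least 0.5 FPKM, and were tested with limma on log2(FPKM + 1) among 11500 genes. The genes on either side of the limit were Trim21 at 0.519 FPKM and Parp14 at 0.404. Ifit2, Ifih1 and Trim21 had a mean below the limit with GFP-Rgnef and passed only through the knockout libraries, where they were higher, so the counts below are a description and no support for a direction. In bulk samples fewer cells of a type and less RNA per cell cannot be told apart. In the knockout libraries 3 of the 26 rose, Ifit2, Ifih1 and Bst2, where 8.04% of all genes tested rose. Another 2 fell, Oasl1 and Irf2, where 5.34% of all genes tested fell. The 5 calls are 19.2% of the 26, against 13.4% of all genes tested in either direction. Voom on recovered reads called the same 5 genes, where it called 8.66% of all genes higher and 4.99% lower. The median log2 difference of the 26 was 0.04, against -0.02 for all genes tested, and 14 differences were positive and 12 negative. The 3 knockout libraries lay entirely above the GFP-Rgnef libraries for 4 of the 26 and entirely below for 4, near the 16.7% of all genes tested on each side and 33.4% on both together. Apart from Ifit2, Ifih1 and Oasl1, the other 23 tested genes, Bst2 and Irf2 among them, lay between -0.42 and 0.52 on the log2 scale. These counts and the median describe the 26 tested genes only. The 19 genes under the filter are described below by their reads. The sum of these reads was higher in each knockout library than in each GFP-Rgnef library. Their summed FPKM overlapped between the groups, at 1.81 in GFP-Rgnef 3 and 1.56 in knockout 2.

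**Figure D2:**
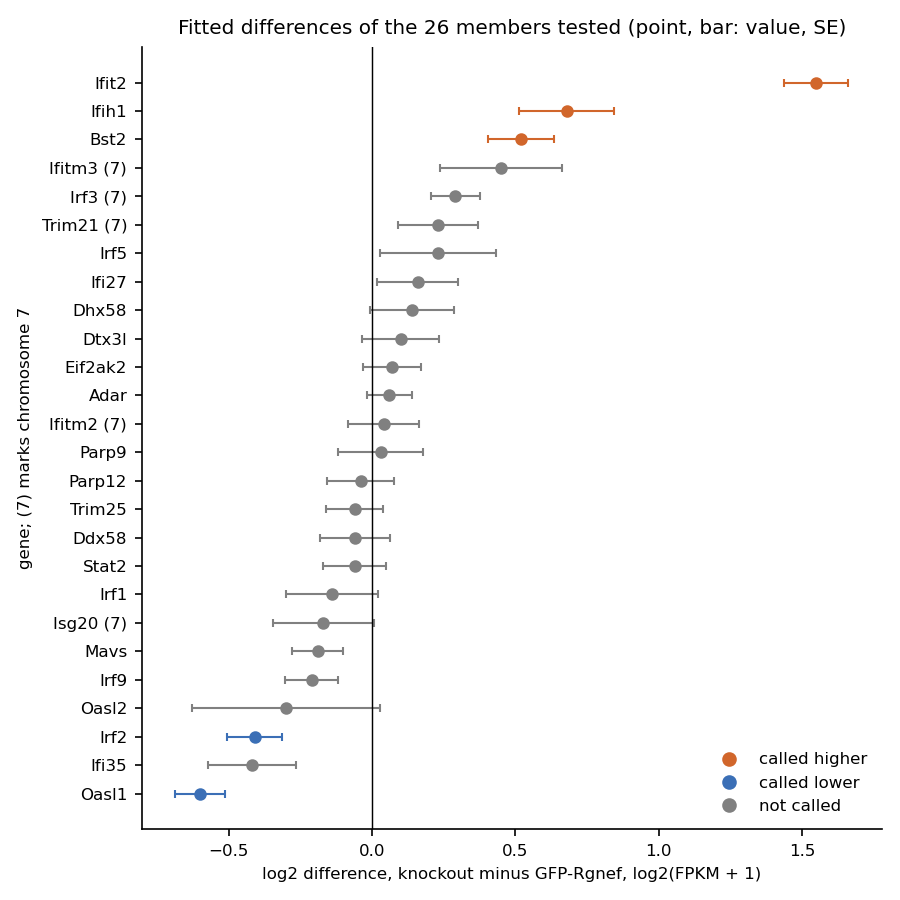
Fitted log2 difference, knockout minus GFP-Rgnef on log2(FPKM + 1), of the 26 genes tested (points) with its SE (bars), ordered by size. Ifit2 at 1.55 stands clear of the others, and most genes lie close to 0.

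Ifit2, an RNA-binding tetratricopeptide protein that inhibits translation, had the largest difference. It stood at 0.182, 0.195 and 0.231 FPKM in the GFP-Rgnef libraries, from 7, 7 and 9 reads, and at 2.39, 2.54 and 2.62 FPKM in the knockout libraries, from 97, 100 and 99 reads. All 3 knockout libraries were thus far above all 3 GFP-Rgnef libraries, and the spread within each group was small. Mean levels were 0.203 ± 0.0251 and 2.52 ± 0.117 FPKM (SD, n = 3), a ratio of 12.4. The fitted log2 difference was 1.55 (SE 0.112, limma adjusted p = 0.000248). The pseudocount of 1 holds this value down, and it was 3.11 with 0.1 in its place. Voom, fitted to the recovered reads, gave 3.55. No 50-base stretch of annotated Ifit2 transcripts occurs in transcripts of another gene. Ifit2 (ENSMUSG00000045932) lies on GRCm38 chromosome 19, 34550694 to 34576419, plus strand.

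The other IFIT genes of the same cluster stayed near the detection limit. Ifit3 begins at 34583531 and Ifit1 at 34640871 on chromosome 19, and both encode RNA-binding partners of Ifit2. Ifit3 had 0, 0 and 3 reads in the GFP-Rgnef libraries and 0, 1 and 9 in the knockout libraries. Ifit1 had 0, 0 and 3 reads and 0, 0 and 15 reads in the same order. In both genes the library numbered 3 was the highest of its group, and the groups overlapped. About 51.2% of the 50-base stretches of Ifit3 transcripts also occur in another gene, mostly Ifit3b, so its reads may have been split or dropped in counting. The log2 ratio of Ifit2 to Ifit3 within a library, on FPKM + 1, was 0.16 to 0.26 with GFP-Rgnef and 1.47 to 1.78 without it. The difference of 1.45 gave p = 0.1 in an exact two-sided permutation test, the smallest that 3 libraries against 3 allow, and an adjusted p of 0.15 over the 3 ratios compared. Ifit3 was at most 0.308 FPKM in any library, so this ratio largely repeats the Ifit2 difference. It cannot show whether Ifit2 moved apart from Ifit3.

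**Figure D3:**
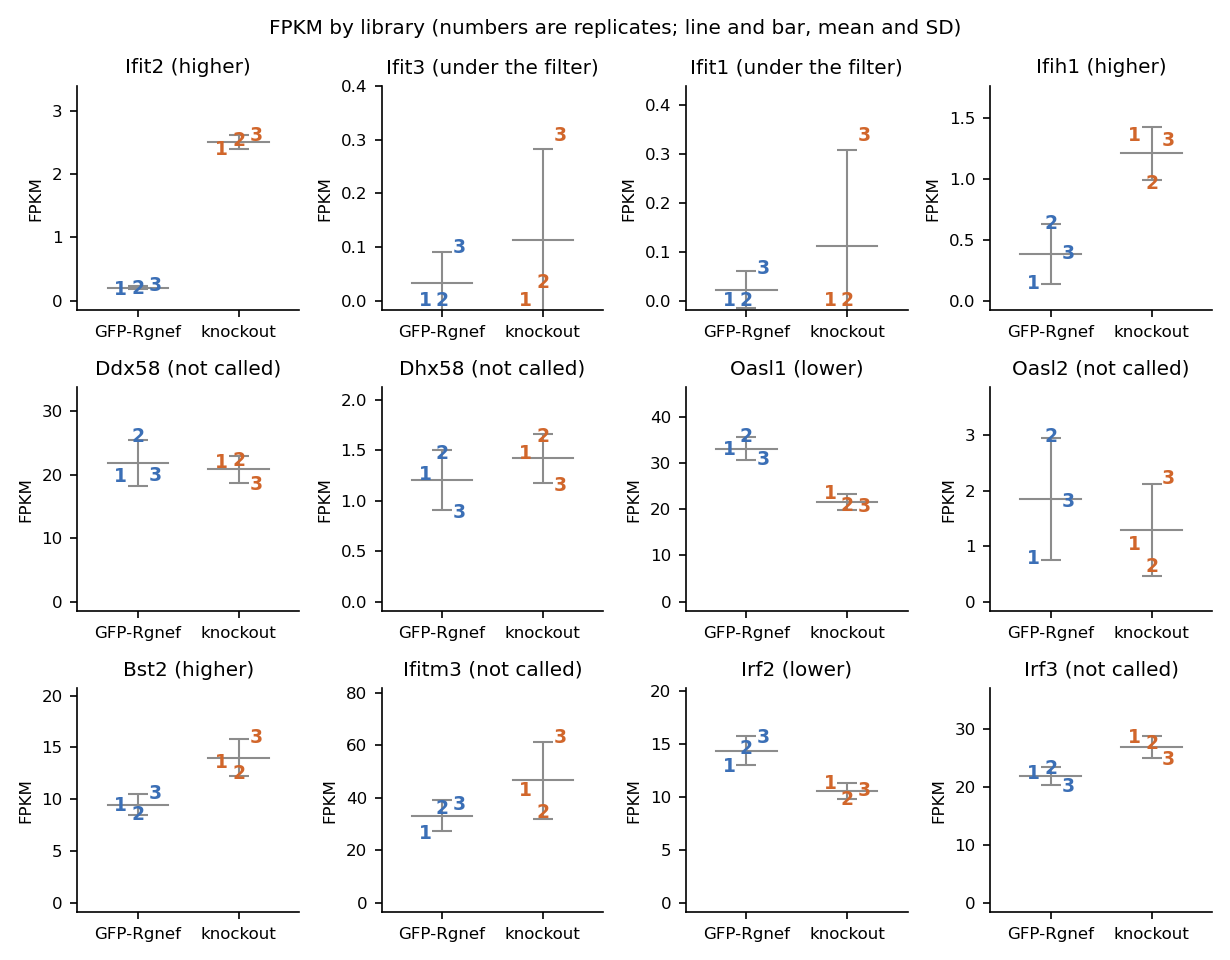
FPKM in each library (digits are replicate numbers, blue for GFP-Rgnef and orange for knockout) for the 5 called genes and 7 relatives, with the group mean and SD in grey. Each panel has its own linear axis. The groups separate for Ifit2, Ifih1, Oasl1, Bst2, Irf2 and Irf3 and overlap for the others.

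Among the cytosolic sensors and their adaptor, 1 of 7 tested was called, Ifih1, a share of 14.3% near the 13.4% of all genes tested. Whether it differed from the other 6 was not tested beyond the ratio given below. Ifih1, which encodes MDA5, the sensor of long double-stranded RNA, had 0.137, 0.629 and 0.386 FPKM with GFP-Rgnef and 1.35, 0.958 and 1.31 FPKM in the knockout libraries. These rest on 7, 30 and 20 reads against 73, 50 and 66. The groups did not overlap, with GFP-Rgnef 2 and knockout 2 the closest pair. The fitted log2 difference was 0.68 (SE 0.166, limma adjusted p = 0.0309), and it was 1.56 with 0.1 as pseudocount. Voom, fitted to the recovered reads, gave 1.87. The call depended on single libraries: leaving out any library other than GFP-Rgnef 2 gave an adjusted p of 0.0606 to 0.0974, with a difference of 0.55 to 0.77.

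The other 6 genes of this role did not pass the test. Ddx58, which encodes RIG-I, had 19.7, 26.1 and 19.9 FPKM with GFP-Rgnef and 21.9, 22.2 and 18.4 FPKM without (log2 difference -0.06, SE 0.123, limma adjusted p = 0.803). Its 3 knockout values lay inside or just below the GFP-Rgnef range. Dhx58, which encodes LGP2, the regulator of both helicases, had 1.21 ± 0.298 and 1.42 ± 0.245 FPKM (SD, n = 3). Eif2ak2, the double-stranded RNA-activated kinase PKR, had 22.7 ± 2.18 and 23.9 ± 2.52 FPKM. Adar, the adenosine deaminase that edits double-stranded RNA, differed by 0.06 (SE 0.078), and Trim25, a ubiquitin ligase acting on RIG-I, by -0.06 (SE 0.099). Mavs, the adaptor downstream of both helicases, had 20.0 to 24.4 FPKM with GFP-Rgnef and 18.2 to 19.8 FPKM without. Its groups did not overlap, but it did not pass the test (log2 difference -0.19, SE 0.090, limma adjusted p = 0.203). The log2 ratio of Ifih1 to Ddx58 within a library ran from -4.19 to -3.92 with GFP-Rgnef and from -3.57 to -3.07 without. This difference of 0.75 gave p = 0.1 in the exact two-sided permutation test, the smallest it allows, and an adjusted p of 0.15. Ddx58 hardly differed, so the ratio largely repeats the Ifih1 difference of 0.68. The test could not have passed, so it cannot show whether Ifih1 moved apart from Ddx58.

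Oasl1 was the abundant member of the OAS family and the one that fell. Oasl1 encodes an OAS-like protein without synthetase activity that in mouse restrains translation of Irf7. It stood at 32.9, 35.8 and 30.8 FPKM with GFP-Rgnef and at 23.5, 20.8 and 20.5 FPKM in the knockout libraries, from 631 to 676 reads against 408 to 501. Each knockout library lay below each GFP-Rgnef library. Mean levels were 33.2 ± 2.53 and 21.6 ± 1.64 FPKM (SD, n = 3), a ratio of 1.54 in favour of GFP-Rgnef. The fitted log2 difference was -0.60 (SE 0.086, limma adjusted p = 0.00471), and it kept its call without any 1 library (-0.66 to -0.54). Oasl1 (ENSMUSG00000041827) lies on chromosome 5, 114923240 to 114937915, plus strand, and shares no 50-base stretch with another annotated gene.

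Oasl2, the adjacent relative that keeps synthetase activity, varied widely among the libraries of each group. It had 0.775, 2.98 and 1.796 FPKM with GFP-Rgnef and 1.04, 0.624 and 2.22 FPKM without, so that the groups overlapped (log2 difference -0.30, SE 0.328, limma adjusted p = 0.621). The log2 ratio of Oasl1 to Oasl2 was 3.66 ± 0.539 with GFP-Rgnef and 3.36 ± 0.541 without (SD, n = 3), and this difference gave p = 0.6 in the exact permutation test. The smallest p this test allows is 0.1, and Oasl2 had 14 to 61 reads per library, so the test could not have shown a change of Oasl1 apart from Oasl2. The synthetase genes Oas1a, Oas2 and Oas3 had 2, 1 and 1 reads in all, each in a single library. Irf7, the known target of Oasl1, had 0.104 to 0.359 FPKM and 0.0508 to 0.443 FPKM, from at most 9 reads in any library.

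Of the transcription factors 6 of 7 were tested, and Irf2 fell. Irf2 encodes a factor that competes with IRF1 at shared sites and damps interferon responses. It had 12.8, 14.5 and 15.6 FPKM with GFP-Rgnef and 11.2, 9.69 and 10.6 FPKM in the knockout libraries. The groups did not overlap, and mean levels were 14.3 ± 1.37 and 10.5 ± 0.769 FPKM (SD, n = 3). The fitted log2 difference was -0.41 (SE 0.096, limma adjusted p = 0.0281). This call was lost without GFP-Rgnef 2, GFP-Rgnef 3 or knockout 2 (adjusted p from 0.0623 to 0.105), and once the median of its chromosome was taken off (-0.34, adjusted p = 0.0701).

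Irf3, the factor that MAVS signalling activates, had 20.0 to 23.1 FPKM with GFP-Rgnef and 24.7 to 28.5 FPKM without. Its groups did not overlap, but the log2 difference of 0.29 (SE 0.086) missed the threshold (limma adjusted p = 0.0593). It passed without knockout 3 (adjusted p = 0.0430) and with both libraries numbered 3 left out (adjusted p = 0.0274). Irf3 lies on chromosome 7, whose genes were higher together in the knockout libraries: of its 819 tested genes, 28.8% were called higher and 0.855% lower, with a median difference of 0.245. After the chromosome's median was removed the Irf3 difference was 0.04 (limma adjusted p = 0.823). Exons of Irf3 also overlap Bcl2l12 on the opposite strand by 88 bases. Of the 7 listed genes on chromosome 7, Irf3, Irf7, Ifitm1, Ifitm2, Ifitm3, Isg20 and Trim21, 5 were tested and 0 called, 1 of them at an unadjusted p below 0.05, and 0 were called by voom on recovered reads.

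Neither factor of the complex downstream of the interferon receptor passed the test. Stat2 stood at 4.91 ± 0.165 FPKM with GFP-Rgnef and 4.70 ± 0.663 FPKM without (SD, n = 3). Irf9, its DNA-binding partner, had 3.44 to 3.59 FPKM against 2.85 to 2.98 FPKM. These 2 ranges did not overlap, yet Irf9 did not pass the test (log2 difference -0.21, SE 0.092, limma adjusted p = 0.171), and 123 of its exon bases overlap Rnf31. Irf1, the interferon-inducible activator, had 45.2, 48.1 and 32.9 FPKM with GFP-Rgnef and 42.97, 39.7 and 31.1 FPKM without, the library numbered 3 being the lowest of each group. Irf5, an activator of inflammatory genes, was also lowest there, with 8.05 FPKM in GFP-Rgnef 3 and 10.6 in knockout 3 as the lowest values, and its exons overlap the more abundant Tnpo3.

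Among the membrane-associated restriction factors Bst2 rose. Bst2 encodes tetherin, which holds budding virus particles at the cell surface. It stood at 9.39, 8.48 and 10.5 FPKM with GFP-Rgnef and at 13.5, 12.5 and 15.9 FPKM without, from 103 to 139 reads against 166 to 204. The groups did not overlap (log2 difference 0.52, SE 0.114, limma adjusted p = 0.0223). The call was lost without GFP-Rgnef 1, GFP-Rgnef 2 or knockout 1, with adjusted p from 0.0572 to 0.0880. Ifitm3, which blocks virus entry from endosomes, had 26.3, 35.9 and 37.3 FPKM and 42.7, 34.2 and 62.9 FPKM, with overlapping groups (log2 difference 0.45, SE 0.214, limma adjusted p = 0.211). Ifitm1 had at most 7 reads in any library.

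The PARP and ubiquitin ligase genes showed 0 calls among 4 tested by limma, 0 by voom and 0 at an unadjusted p below 0.05. Limma called 13.4% of all genes tested, so 0 calls among so few is no result about these genes. Parp12, an RNA-binding ADP-ribosyltransferase, had 12.1 ± 1.57 and 11.6 ± 1.34 FPKM (SD, n = 3). Parp9 and Dtx3l, which form a complex and whose oppositely oriented exons overlap by 458 bases, differed by 0.03 (SE 0.149) and 0.10 (SE 0.135). Trim21, the cytosolic antibody receptor on chromosome 7, differed by 0.23 (SE 0.138, limma adjusted p = 0.317). Of the other effectors 3 of 8 were tested, again too few to set against the 13.4% of all genes. Of these 0 were called by limma or by voom, and 1 had an unadjusted p below 0.05. That 1 was Ifi35, a partner of the interferon-induced protein Nmi, with 4.84, 6.31 and 5.86 FPKM against 5.15, 3.60 and 3.33 FPKM (log2 difference -0.42, SE 0.153, limma adjusted p = 0.115). Its groups overlapped through knockout 1, and without that library it passed (-0.57, adjusted p = 0.0420). Isg20, an RNA exonuclease, and Ifi27, a mitochondrial protein, differed by -0.17 (SE 0.177) and 0.16 (SE 0.141).

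The 19 genes under the filter had 39 to 54 reads per GFP-Rgnef library and 57 to 120 per knockout library, added over all 19. Their summed FPKM overlapped, at 1.11 to 1.81 with GFP-Rgnef and 1.56 to 3.77 without. Of these 19 genes 10 had 10 or fewer reads over all 6 libraries. Parp14, an ADP-ribosyltransferase, had the most, with 20, 22 and 14 reads with GFP-Rgnef and 40, 31 and 39 without. Gbp2, an interferon-induced GTPase, had 3, 3 and 5 reads against 11, 10 and 8. Isg15, the ubiquitin-like modifier, had 1, 0 and 2 reads against 5, 3 and 3. In these 3 genes each knockout library was above each GFP-Rgnef library in FPKM. For the other genes under the filter the groups overlapped, and some, such as Cmpk2 and Rsad2, had a lower mean in the knockout libraries. How often the groups separate among all genes this low was not counted. With no filter limma called Gbp2 (log2 difference 0.23, adjusted p = 0.0373) but not Parp14 (adjusted p = 0.0848) or Isg15 (adjusted p = 0.101). The share called among the 19655 genes tested in this way is not given here. By voom on reads of genes with at least 30 reads, an alternative added after the data were seen, neither Parp14 (log2 difference 0.92, SE 0.294, adjusted p = 0.0731) nor Gbp2 (1.26, SE 0.434, adjusted p = 0.0955) passed, where 8.24% of all genes were higher and 4.65% lower.

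Within the knockout group the low genes were concentrated in 1 library. Knockout 3 held 120 reads of the 19 genes, against 76 in knockout 1 and 57 in knockout 2, and was the highest of its group for 12 of the 19. Ifit1 (15 reads against 0 and 0), Ifit3 (9 against 0 and 1), Usp18 (6 against 0 and 1) and Ifi44 (5 against 0 and 0) showed this order. With GFP-Rgnef the library numbered 3 had 54 reads, against 41 and 39, and was the highest for 10 of the 19. Knockout 3 also held 11 reads of the macrophage lysozyme gene Lyz2 (0 to 1 in the other 5 libraries) and the 1 read of Tyrobp, an adaptor of myeloid receptors. Other myeloid markers with reads were not highest there. Csf1r (5 reads) and Cd68 (65 reads, against 35 in knockout 3) were highest in knockout 1, and S100a9 (3 reads) in GFP-Rgnef 3. The summed level of the 20 leukocyte markers was 6.34 to 7.68 FPKM with GFP-Rgnef and 5.25 to 7.74 FPKM without, with 12 to 14 of them at 0 in each library, Adgre1 and Cd3e among those at 0 in every library. Most of this sum came from Cd14, Cd68 and Fcer1g. The part of leukocytes in the low genes was not tested.

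**Figure D4:**
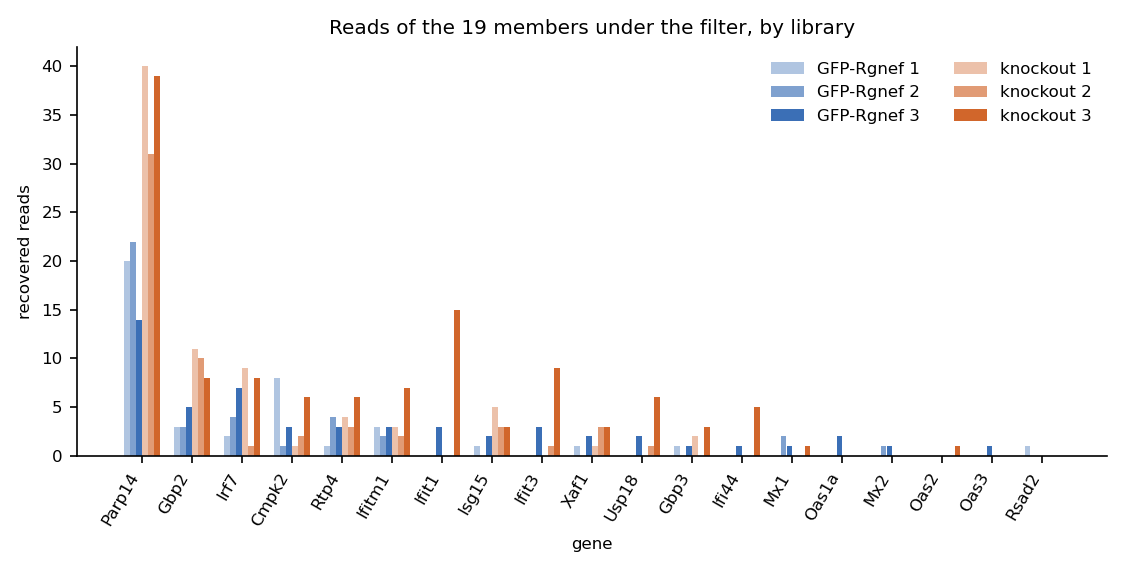
Recovered reads (vertical axis, linear) in each of the 6 libraries for the 19 genes under the filter, blue for GFP-Rgnef and orange for knockout, darkest for the library numbered 3. Parp14 and Gbp2 are higher in all knockout bars, and Ifit1, Ifit3, Usp18 and Ifi44 rise in the knockout 3 bar.

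Other genes of the pathway, listed by function, moved in both directions as well. Of 141 such genes 139 were in the table and 81 were tested; 9 rose and 6 fell, together 18.5%, where 8.04% of all genes tested rose and 5.34% fell. The median log2 difference was -0.02, the same as over all genes tested. All of the interferon genes looked up (Ifnb1, Ifna1, Ifna2, Ifna4, Ifnk, Ifng, Ifnl2 and Ifnl3) were at 0 in all 6 libraries. Of the receptor and JAK-STAT list, 17 of 28 were tested, 1 rose and 3 fell. Socs1, the feedback inhibitor of JAK kinases, fell from 2.79, 3.04 and 2.94 FPKM to 0.775, 1.08 and 1.32 FPKM (log2 difference -0.94, SE 0.129, limma adjusted p = 0.00406). Its groups were well apart, and with a pseudocount of 0.1 the difference was -1.41. Ifngr2, a chain of the interferon gamma receptor, fell from 31.9 ± 0.315 to 20.2 ± 1.57 FPKM (log2 difference -0.63, SE 0.077, limma adjusted p = 0.00247). Ifnar2, a chain of the type I interferon receptor, had 11.6 ± 0.121 and 8.99 ± 0.631 FPKM (SD, n = 3). Its fall (-0.34, limma adjusted p = 0.0302) was lost without any 1 library other than knockout 1, with adjusted p up to 0.116. Socs1, Ifngr2 and Ifnar2 all lie on chromosome 16, whose 358 tested genes had a median difference of -0.037. Socs1 begins at 10782240, far from Ifnar2 at 91372783. Between Ifnar2 and Ifngr2 lie Il10rb and Ifnar1, which differed by 0.09 (SE 0.105) and -0.06 (SE 0.070). Both were named after their values were seen. Pias1, an inhibitor of STAT signalling on chromosome 9, rose (0.41, limma adjusted p = 0.0212), but its difference was 0.12 (adjusted p = 0.508) after the chromosome's median was removed. Its call was also lost without GFP-Rgnef 2, knockout 1 or knockout 2 (adjusted p from 0.0697 to 0.0830).

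Of the sensing list 29 of 40 were tested, 0 rose and 3 fell, where 8.04% of all genes tested rose and 5.34% fell. The calls are 10.3% of the 29, against 13.4% of all genes tested in either direction. At an unadjusted p below 0.05, 3 of this list were higher and 6 lower, and 10 differences were positive and 19 negative. Voom on recovered reads called the same 3 lower, and Nlrx1 and Cyld higher, both named after their values were seen. Those that fell were Ikbkg, which encodes the NEMO scaffold of IKK, Rnaseh2a, a subunit of RNase H2, and Zc3h12a, an endonuclease that degrades inflammatory transcripts. Ikbkg fell from 24.9 ± 3.98 to 16.5 ± 0.9302 FPKM (log2 difference -0.56, SE 0.112, limma adjusted p = 0.0162), and 418 of its exon bases overlap G6pdx, which had a mean of 179 FPKM on the opposite strand. Without knockout 2 its adjusted p was 0.0714. Rnaseh2a exons overlap Prdx2 on the opposite strand, and its call (-0.27, limma adjusted p = 0.0246) was lost without any of 4 libraries, GFP-Rgnef 1, GFP-Rgnef 2, knockout 1 or knockout 2. The Zc3h12a call (-0.55, adjusted p = 0.0425) was lost without any library other than knockout 3. The cyclic GMP-AMP synthase gene Cgas, also named after its values were seen, had 11.3 ± 0.475 and 10.2 ± 0.655 FPKM and did not pass the test. Once the median of its own chromosome was taken off each gene, Cgas was called lower, and of the 6 genes that fell Ifngr2, Socs1 and Ikbkg were still called while Ifnar2, Rnaseh2a and Zc3h12a were not (adjusted p from 0.0739 to 0.0794).

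Of the other interferon-induced effectors 35 of 73 were tested, 8 rose and 0 fell by limma, with 5 lower at an unadjusted p below 0.05. Over all genes tested 8.04% rose and 5.34% fell. Voom on recovered reads gave 12 higher and 7 lower over all 3 lists. Most of the genes that rose lie on chromosome 9, where 36.6% of 639 tested genes rose and 1.25% fell: Pml, Parp3, Shisa5, Plscr1, Plscr2 and Azi2, together with Pias1 of the receptor list, are 7 of the 9. Plscr2, a phospholipid scramblase, rose from 29.7 ± 1.66 to 48.2 ± 6.21 FPKM, Azi2, a TBK1-binding adaptor, from 32.3 ± 1.66 to 44.8 ± 2.08, and Shisa5 from 36.3 ± 1.47 to 48.2 ± 3.91 (SD, n = 3). The Shisa5 call was lost without GFP-Rgnef 1 or knockout 1, with adjusted p of 0.0624 and 0.0530. Once the median of its own chromosome was taken off each gene, 2 of the 9 were called, Samd9l and Slfn9. Samd9l, an interferon-induced antiviral inhibitor of translation on chromosome 6, rose from 0.245, 0.524 and 0.523 FPKM to 1.78, 2.20 and 1.78 FPKM (log2 difference 1.03, SE 0.137, limma adjusted p = 0.00348). All 3 knockout libraries lay far above the highest GFP-Rgnef library. Its mean with GFP-Rgnef was 0.431 FPKM, below the limit of 0.5, and it passed the filter only through the knockout libraries. Its calls are therefore a description and no support for a direction. With a pseudocount of 0.1 the difference was 1.97.

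The chromosome around Ifit2, Ifih1 and Oasl1 was described through the 5 nearest tested genes on each side. Of all genes tested 8.04% were called higher and 5.34% lower. Beside these shares, the few calls among the 10 neighbours of each gene are a description only. Beside Ifih1, Gca, which encodes the calcium-binding protein grancalcin, rose more than Ifih1 itself. Gca begins at 62664285 on chromosome 2, 18.0 kb from Ifih1 and in the opposite orientation, on the plus strand. It stood at 0.380, 0.644 and 0.530 FPKM with GFP-Rgnef and 5.40, 6.16 and 3.70 FPKM without, from 12 to 19 reads against 115 to 199. The groups were far apart, at 9.82-fold in the means (log2 difference 1.98, SE 0.168, limma adjusted p = 0.000468), and the difference was 3.06 with a pseudocount of 0.1. Ly75, an endocytic receptor gene 2212.5 kb away, also rose (0.59, limma adjusted p = 0.0397), a call lost without any library other than knockout 1. The other 8 neighbours of Ifih1 were not called.

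Beside Ifit2, Lipa, which encodes lysosomal acid lipase and ends 23.2 kb away, was called among 10 neighbours. Lipa had 4.36, 4.35 and 3.81 FPKM with GFP-Rgnef and 7.56, 6.12 and 8.39 FPKM without (log2 difference 0.69, SE 0.121, limma adjusted p = 0.00956). Its groups did not overlap. The differences of the 10 neighbours ran from -0.79 to 0.69. Beside Oasl1, 0 of 10 neighbours were called by limma or by voom on recovered reads. At an unadjusted p below 0.05, 2 were lower, 1500011B03Rik (-0.45, SE 0.143) and Acads (-0.22, SE 0.086), named here after their values were seen. The 10 differences ran from -0.45 to 0.16. Limma called 13.4% of all genes tested, so 1 or 0 calls among 10 neighbours is no result about either region.

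**Figure D5:**
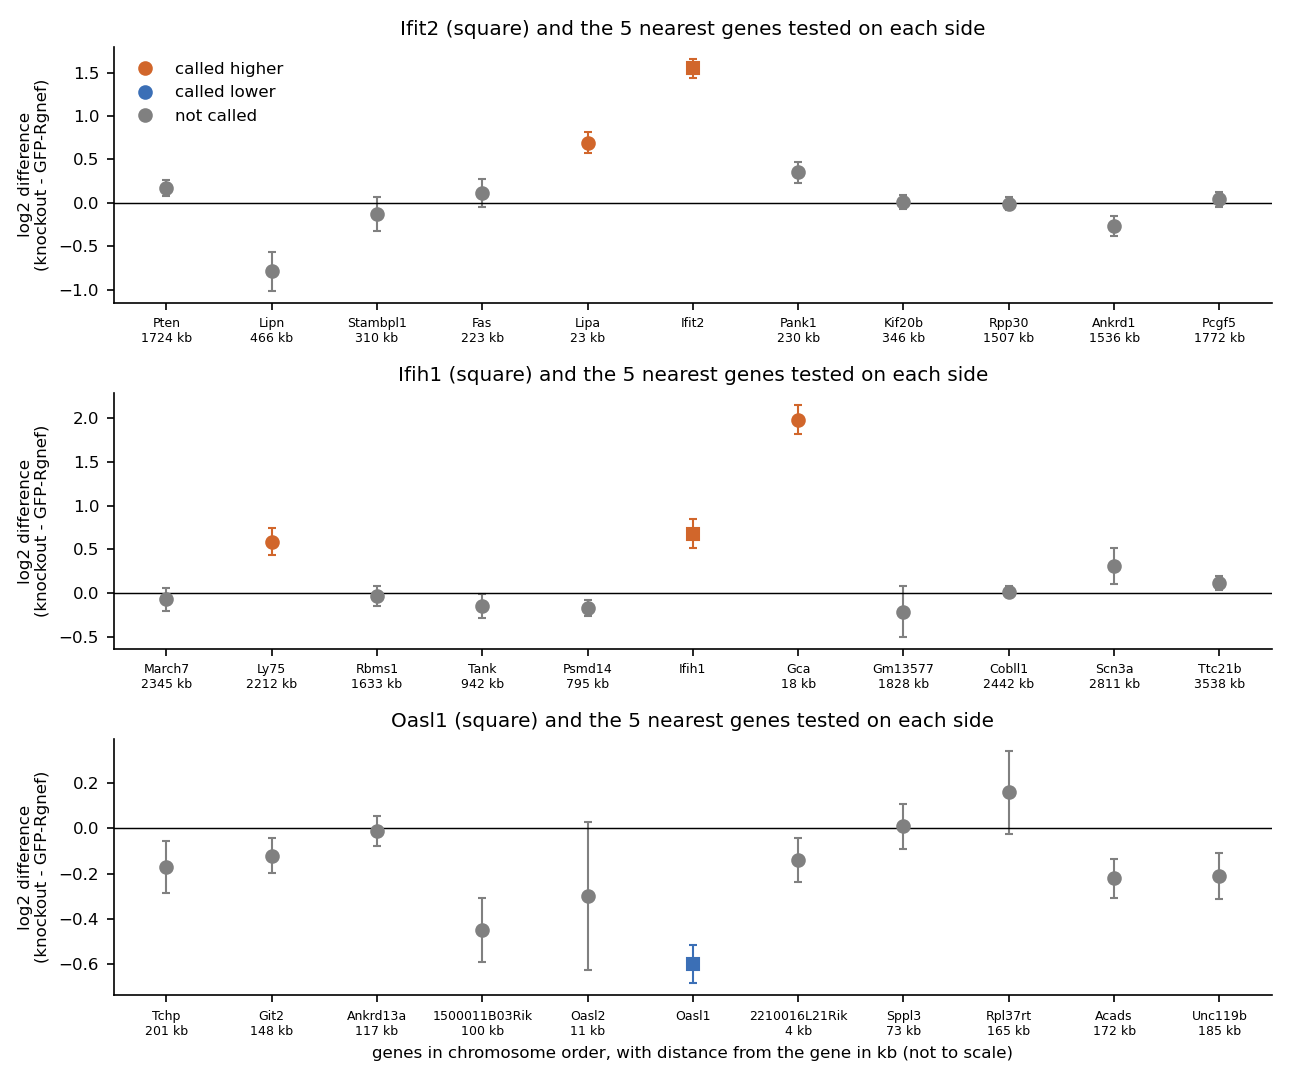
Fitted log2 differences, knockout minus GFP-Rgnef on log2(FPKM + 1), with SE, of Ifit2, Ifih1 and Oasl1 (squares) and the 5 nearest tested genes on each side (circles), in chromosome order with distances in kb. Lipa and Gca, the nearest circles of Ifit2 and Ifih1, are called higher, and no circle around Oasl1 is called. Of all genes tested 13.4% were called.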

How the data were processed

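The deposited table gives FPKM per gene for 6 poly-A libraries. The submitters' processing notes name CASAVA 1.8, TopHat2 2.0.9, DESeq2 and the mm10 genome. The read counter, annotation and strand setting are not given in the sources used here, so reads of overlapping genes may be mixed.

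FPKM values from the authors were tested with limma 3.58.1 in R 4.3.3 on log2(FPKM + 1), with trend and Benjamini-Hochberg adjustment over the 11500 genes with a mean of at least 0.5 FPKM, at an adjusted p of 0.05. A pseudocount of 1 understates changes of low genes. Differences are knockout minus GFP-Rgnef. Whole reads were recovered from the steps of the FPKM values (tolerance 0.02 reads), giving 99.77% to 99.85% of the implied depth. Lengths came from the annotation for 4228 genes and were the shortest that gave whole reads for 15426. On simulated data over 11500 genes, 86.6% of changes of 1.5-fold, 88.1% of 2-fold and 100% of 4-fold were recovered, with 12 false calls. The simulation gave all genes the same spread between libraries (dispersion 0.00401), taken from genes with many reads. It held no shift shared by libraries or by a chromosome, so these rates may be too high for listed genes that vary more.

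The 45 genes and the pathway lists were chosen with earlier results of these data known. Genes named are all 45, up to 4 called genes per pathway list by smallest p, and called neighbours of Ifit2, Ifih1 and Oasl1. Alternatives were another pseudocount, other filters, TPM and median-of-ratios scaling, limma without trend, a replicate block, each library left out, both libraries numbered 3 left out, chromosome centring and voom on recovered reads. Voom on genes with at least 30 reads was chosen after seeing the data.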

Additional observations from a re-analysis of the deposited data

How the results depend on the processing

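Of 432 values of the 26 tested genes under the alternatives, 411 kept their side of the threshold, 16 lost a call and 5 gained one. No called value changed sign, but some uncalled values near 0 did (Ddx58, Eif2ak2, Trim25, Stat2, Ifitm2, Parp9, Parp12 and Trim21). Genes called higher numbered 2 with no filter (Ifit2 and Gbp2; Ifih1 and Bst2 missed at adjusted p of 0.051 and 0.0578 by limma), 1 with a mean of at least 5 FPKM, which leaves out Ifit2 and Ifih1, and 1 to 3 with 1 library left out (1 without GFP-Rgnef 1 or knockout 1). Genes called lower numbered 1 with no filter, 1 after chromosome centring, and 1 to 3 with 1 library left out (1 without GFP-Rgnef 2, GFP-Rgnef 3 or knockout 2). Of the other pathway genes, 2 were higher after chromosome centring and 3 to 8 with 1 library left out (fewest without knockout 1). The lower ones numbered 11 with both libraries numbered 3 left out and 2 to 6 with 1 library left out (fewest without knockout 2). With a pseudocount of 0.1 the log2 ratio differences were 2.63 for Ifit2 to Ifit3 and 1.63 for Ifih1 to Ddx58. With 1 library left out these ratio differences, and that of Oasl1 to Oasl2, were 1.39 to 1.55, 0.63 to 0.88 and -0.52 to 0.01. The cause of these shifts was not tested. Apart from voom, the share of all genes called under each alternative is not given here, so these counts describe the settings only.

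Deviations of same-numbered libraries correlated at 0.321, -0.02 and 0.552, and the labels give no shared origin, so the numbers were not taken to pair the samples. The libraries numbered 3 had the highest correlation of all pairs, and a factor they share was not tested. Not every library correlated best with its own number. With the replicate block 5 listed genes were higher (Irf3 and Ifitm3 added) and 14 other pathway genes lower. The share of all genes called with the block is not given here, so these counts are no result about the listed or pathway genes. Depth limits the genes under 0.5 FPKM, and differences there were mostly not detectable.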
